A study of Mus musculus with 18 samples.

Results

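The nuclear genes for the subunits of the mitochondrial respiratory chain and ATP synthase were followed through neutrophil development in mouse bone marrow. Members were chosen by symbol and type alone, as protein-coding genes of the deposited expression table whose symbols begin with Ndufa, Ndufb, Ndufc, Ndufs, Ndufv, Uqcr, Cox4 to Cox8 or Atp5, plus Sdha, Sdhb, Sdhc and Sdhd, without the Ndufaf assembly factors. The rule gave 72 of the 34896 genes in the table. Complex I had 32 members, complex II 4, complex III 7, complex IV 16 and complex V 13. A further 12 subunit genes, among them Cox5a, Ndufs1, Ndufs3 and Atp5d, carry another transcript type in the table and are described apart.

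RNA-seq had been made from granulocyte-monocyte progenitors (GMP), pre-neutrophils (preNeu) and mature neutrophils (matNeu), with 3 libraries for each cell type. All came from wild type C57BL/6 mice aged 6 to 12 weeks, and the cells were sorted from bone marrow by surface markers. ChIP-seq of the histone mark H3K4me2 in the same cell types, and of CHD4, the ATPase of the NuRD chromatin remodelling complex, in wild type and Gfi1-/- GMPs, gave 1 peak list each. Gfi1-/- mice lack GFI1, a zinc finger repressor of myeloid genes. Nothing in the labels says whether replicates came from separate mice, so the p-values below measure only the spread between these libraries, which may be technical.

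The respiratory chain passes electrons from NADH (complex I) and succinate (complex II) through ubiquinone, complex III and cytochrome c to oxygen at complex IV. Complexes I, III and IV pump protons across the inner mitochondrial membrane, and complex V, the ATP synthase, lets them flow back to make ATP. Complex II is built from nuclear genes alone, whereas the other complexes combine nuclear subunits with a few encoded by mitochondrial DNA. Mature neutrophils are known for few mitochondria and for a metabolism that leans on glycolysis.

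Expression was given as TPM (transcript abundance corrected for length), which sets each library to the same total and keeps no read depth. The depth of the libraries is therefore unknown. Replicates of a cell type correlated at r of 0.974 to 0.986 on log2(TPM + 1), and between 10754 and 12256 genes per library reached 1 TPM. The 10 most abundant genes took 9.15% to 28.3% of a library, with the highest shares in preNeu. The label that names the cell type differed from the title in all 9 RNA-seq libraries, and titles were followed. The 5 GMP markers (Cd34, Kit, Mpo, Elane, Prtn3) summed to 42380 to 43920 TPM in the libraries titled GMP and to 9.13 to 29.9 TPM in those titled matNeu. Markers of other cells also differed between the groups. The 4 eosinophil markers summed to 850 to 1096 TPM in GMP and 33.6 to 52.2 TPM in matNeu with Epx at 0, the 4 basophil and mast cell markers to 412 to 526 and 1.73 to 6.50 TPM, and the 5 monocyte and macrophage markers to 2942 to 3616 and 1125 to 1493 TPM. Ly6c2 carried most of the last sum, and within that list Csf1r measured 188 to 232 TPM in GMP and 253 to 349.6 TPM in matNeu, and Adgre1 10.7 to 14.9 and 75.7 to 96.97 TPM. The 5 lymphoid markers summed to 458 to 610 TPM in GMP, with Cd3e at 0, and to 33.9 to 79.0 TPM in matNeu. The part of such cells in the results below was not tested, and in sorted bulk samples fewer cells of a type and less RNA per cell cannot be told apart.

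The summed level of the 72 members fell at both steps. It was 13446, 14867 and 13775 TPM in GMP, 7054, 6951 and 6677 TPM in preNeu and 4078, 3378 and 3062 TPM in matNeu. The groups did not overlap. The means were 14029 ± 744, 6894 ± 195 and 3506 ± 520.2 TPM (SD, n = 3), so that GMP held 2.03-fold the level of preNeu and 4.001-fold that of matNeu. The summed levels of complex V fell 5.495-fold from GMP to matNeu, those of complex III 4.86-fold, complex I 3.93-fold, complex II 2.85-fold and complex IV 2.06-fold. Complexes II and IV fell mostly before the preNeu stage (2.37-fold and then 1.21-fold, and 1.64-fold and then 1.25-fold), whereas complex I fell 1.88-fold and then 2.09-fold, complex III 1.99-fold and then 2.44-fold, and complex V 2.20-fold and then 2.49-fold. These folds depend on the scaling of TPM. With TPM divided by median-of-ratios size factors, the sum of all members fell 1.99-fold from GMP to matNeu, complex V 2.737-fold, complex III 2.417-fold, complex I 1.95-fold and complex II 1.421-fold, whereas complex IV stood at 1.021-fold with overlapping groups. On that scale GMP to preNeu was 1.632-fold for complex II and 1.125-fold for complex IV, and the ratio of preNeu to matNeu was 0.871 and 0.908.

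**Figure D1:**
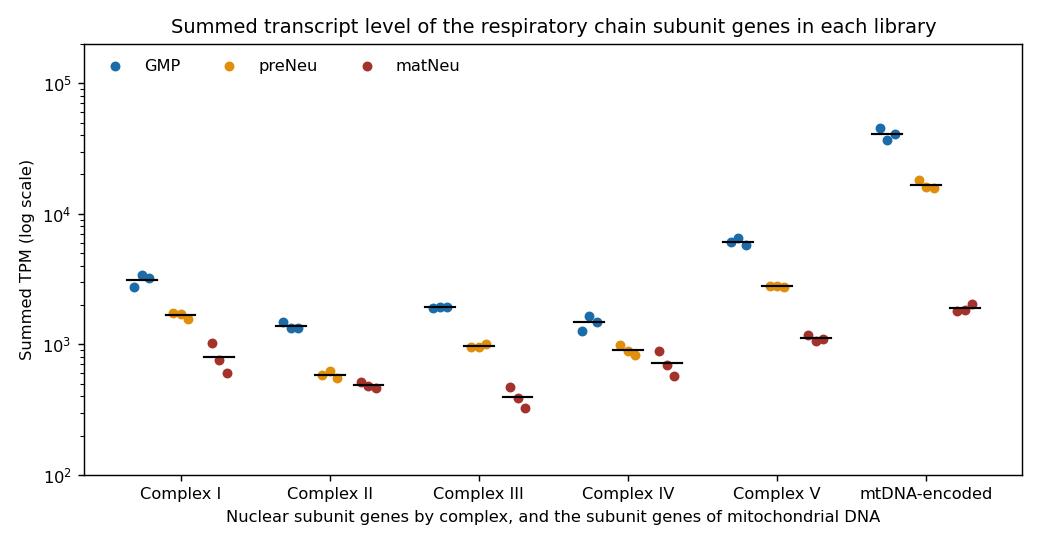
Summed TPM (log scale) of the subunit genes of each complex, and of the 13 subunit genes of mitochondrial DNA, in each library. Points are libraries coloured by cell type and black lines are means of 3. Complex V fell from 6123 to 1114 TPM and complex IV from 1472 to 715 TPM between GMP and matNeu, and the mitochondrially encoded genes from 41135 to 1897 TPM.

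Of the 72 members, 67 reached 1 TPM in at least 3 libraries and were tested with limma among 13061 genes. The other 5 were the tissue-specific isoforms Cox6a2, Cox7a1, Cox7b2, Cox8b and Cox8c. Their highest value in any library was 2.55 TPM, for Cox8b in preNeu replicate 2, and Cox7b2 and Cox8c were listed at 0 in all 9 libraries.

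From GMP to preNeu, 37 of the 67 members were lower at an adjusted p under 0.05 and 1 was higher, where 44.3% of all tested genes were lower and 14.7% higher. The median log2 change of the members was -0.86, against -0.52 over all tested genes, and 47 of 67 members lay below the median of all genes. From preNeu to matNeu, 45 members were lower and 1 was higher, beside 39.8% and 22.9% of all genes. Here the median of the members was -1.01 against -0.32. Over the whole course from GMP to matNeu, 58 of 67 members were lower, where 54.1% of all genes were lower, and no member was higher, where 22.8% of all genes were. Every fitted change in this comparison was negative, from -5.95 to -0.34, so that no member was higher at an unadjusted p under 0.05 either. The median was -1.67 against -0.92. The TPM values of GMP and matNeu did not overlap for 53 of 67 members, all of them lower in matNeu. Over all tested genes 78.6% did not overlap, and 54.8% did not overlap and were lower in matNeu.

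These counts depend on how TPM is scaled. When TPM was rescaled by median-of-ratios size factors, the median change of all genes from GMP to matNeu moved from -0.92 to -0.11, and the share of higher genes among all calls moved from 29.6% to 47.2%. It moved from 24.98% to 46.01% between GMP and preNeu and from 36.5% to 49.7% between preNeu and matNeu. Leaving out the most abundant genes moved the share for GMP and preNeu to 37.6%. It moved that for preNeu and matNeu the other way, to 29.65%, and left that for GMP and matNeu at 30.69%. On the rescaled values 36 members were lower in matNeu than in GMP and 0 higher, where 40.3% of all genes were lower and 36.05% higher. The members lay 0.75 below the median of all genes on the log2 scale as deposited and 0.68 below it after rescaling.

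**Figure D2:**
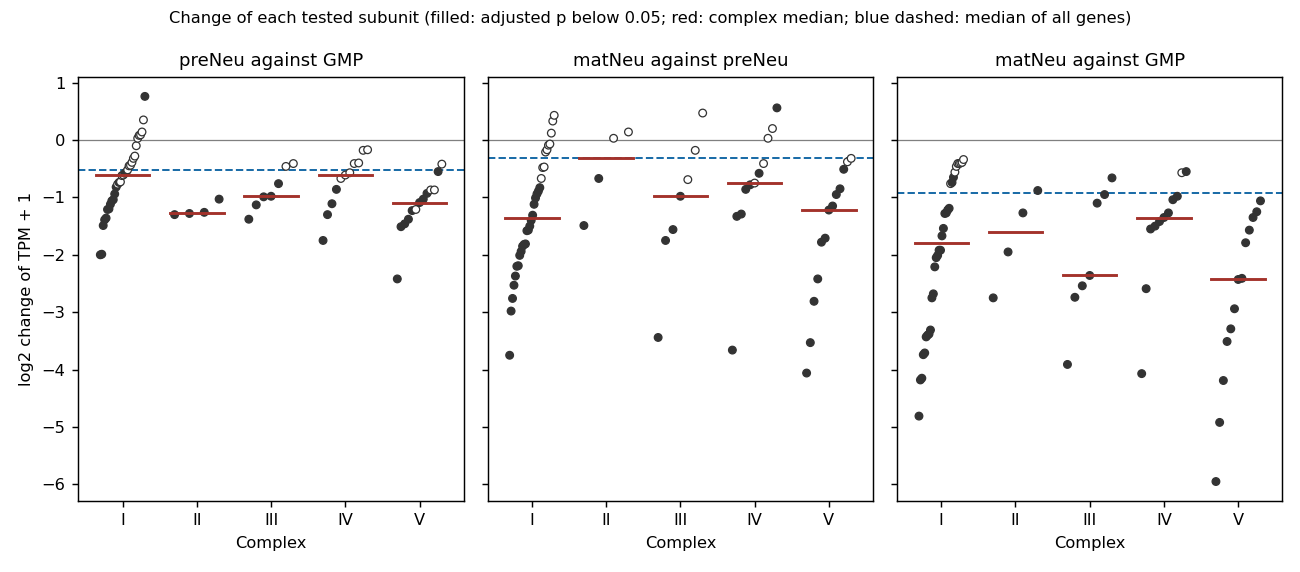
Log2 change of TPM + 1 for each of the 67 tested members, by complex, in the 3 comparisons. Filled points passed an adjusted p of 0.05 in limma, red lines are the medians of a complex, and the dashed line is the median of all tested genes. In matNeu against GMP the complex medians lay at -1.80, -1.61, -2.36, -1.35 and -2.43 for complexes I to V.

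At both steps 26 of the 67 members were lower (38.8%), beside 22.2% of all tested genes. A further 18 members were lower only at the step from preNeu to matNeu by this threshold, 10 only at the step from GMP to preNeu, and 11 at neither step. These were 26.9%, 14.9% and 16.4% of the members, beside 12%, 15.6% and 17.9% of all genes, so that the last 2 shares were near those of all genes. The remaining members, Ndufv3 and Cox7a2l, moved in opposite directions at the 2 steps. The difference between steps was not tested for any gene.

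Complex I takes electrons from NADH through flavin and iron-sulphur clusters in its matrix arm. Of its 32 members, 24 were lower in matNeu than in GMP and 8 did not pass the test, where 54.1% of all tested genes were lower. Ndufv1, which binds the flavin and receives electrons from NADH, measured 335, 373 and 347 TPM in GMP, 120, 131 and 122 TPM in preNeu and 36.9, 26.2 and 32.9 TPM in matNeu. The libraries of each cell type lay apart from the others, and the level fell at either step (log2 change -1.49 ± 0.14 (SE) and -1.94 ± 0.14, limma adjusted p = 8.9e-06 and 5.11e-07). Ndufv2, which carries an iron-sulphur cluster beside it, kept most of its level to the preNeu stage, with 181, 159 and 189 TPM in GMP and 145, 126 and 93.6 TPM in preNeu, and then measured 24.3, 24.7 and 26.9 TPM in matNeu. Its smaller first change of -0.56 had a limma adjusted p = 0.0142, and 0.0506 without GMP replicate 3. It was -0.02 (adjusted p = 0.927) on values rescaled by median of ratios and -0.21 (adjusted p = 0.325) without the most abundant genes, and the second change was -2.20.

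Ndufs7 and Ndufs8 hold the last clusters before ubiquinone, and they followed different courses. Ndufs7 measured 135, 155 and 190 TPM in GMP, 77.7, 63.0 and 66.0 TPM in preNeu and 87.7, 68.7 and 46.0 TPM in matNeu. It was lower in preNeu than in GMP (-1.20 ± 0.22, limma adjusted p = 0.0009), whereas preNeu and matNeu overlapped (-0.07 ± 0.22, adjusted p = 0.805). Ndufs8 fell at both steps, by 1.12 and 0.89 on the log2 scale, to 39.2, 26.02 and 22.6 TPM in matNeu, and both calls were lost on the rescaled values (-0.59, adjusted p = 0.0724, and -0.43, adjusted p = 0.153).

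The largest falls in complex I were in accessory subunits, which surround the catalytic core and are needed for its assembly. Ndufc2, of the membrane arm, was at 40.4, 58.4 and 42.4 TPM in GMP, 19.1, 24.9 and 21.7 TPM in preNeu and 1.63, 0 and 0.837 TPM in matNeu. Its change from GMP to matNeu was -4.81 ± 0.33 (limma adjusted p = 2e-07). Its first change of -1.06 lost its call without GMP replicate 2 (adjusted p = 0.0763) or preNeu replicate 1 (adjusted p = 0.0616), on the rescaled values (adjusted p = 0.261) and without the most abundant genes (adjusted p = 0.111). Ndufa12, of the matrix arm, fell from 35.96, 53.9 and 54.5 TPM through 12.9, 11.8 and 9.02 TPM to 2.68, 2.01 and 0.716 TPM. Ndufa10, the complex I member with the highest mean level, lost most at the first step, from 467, 383 and 478 TPM to 116, 107 and 105 TPM, before 47.2, 28.9 and 49.6 TPM in matNeu. None of these groups overlapped.

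Ndufv3, an accessory subunit of the NADH-oxidising module, was the only member higher in preNeu than in GMP. It measured 46.3, 60.3 and 42.8 TPM in GMP, 81.2, 91.0 and 80.1 TPM in preNeu and 35.7, 35.7 and 19.3 TPM in matNeu. All preNeu libraries lay above all others. The rise was 0.76 ± 0.23 (limma adjusted p = 0.0171) and lost its call without GMP replicate 3 (adjusted p = 0.0622) or preNeu replicate 2 (adjusted p = 0.0574), whereas the later fall was -1.50 ± 0.23 (adjusted p = 0.000215).

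The 8 complex I members that did not pass the test between GMP and matNeu were Ndufa3, Ndufa7, Ndufa8, Ndufb2, Ndufb4, Ndufb7, Ndufb9 and Ndufb11. With the exception of Ndufa7 they are accessory subunits of the membrane arm. Ndufa3, for example, measured 45.3, 67.4 and 66.99 TPM in GMP and 53.6, 66.3 and 25.2 TPM in matNeu. By module, as assigned after the data were seen, 7 of 7 genes of the NADH-oxidising module were lower in matNeu (median -1.92), 4 of 5 of the ubiquinone module (-1.27) and 11 of 18 of the membrane arm (-1.41), where 54.1% of all genes were lower. Of the membrane arm, 10 of 18 lay below the median change of all genes. Over the members of all complexes, short messages spread more between the replicates of GMP and of matNeu, but not of preNeu. Members with a median annotated transcript of at most 710.5 bases lay 0.51 (log2) above the mean of their group in matNeu replicate 1 and 0.36 below it in matNeu replicate 3, 0.37 below it in GMP replicate 1 and 0.36 above it in GMP replicate 2, and longer members within 0.18 of it. In preNeu the short members lay within 0.090 of the mean of their group and the longer ones within 0.099. These are medians over the members of each length class.

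**Figure D3:**
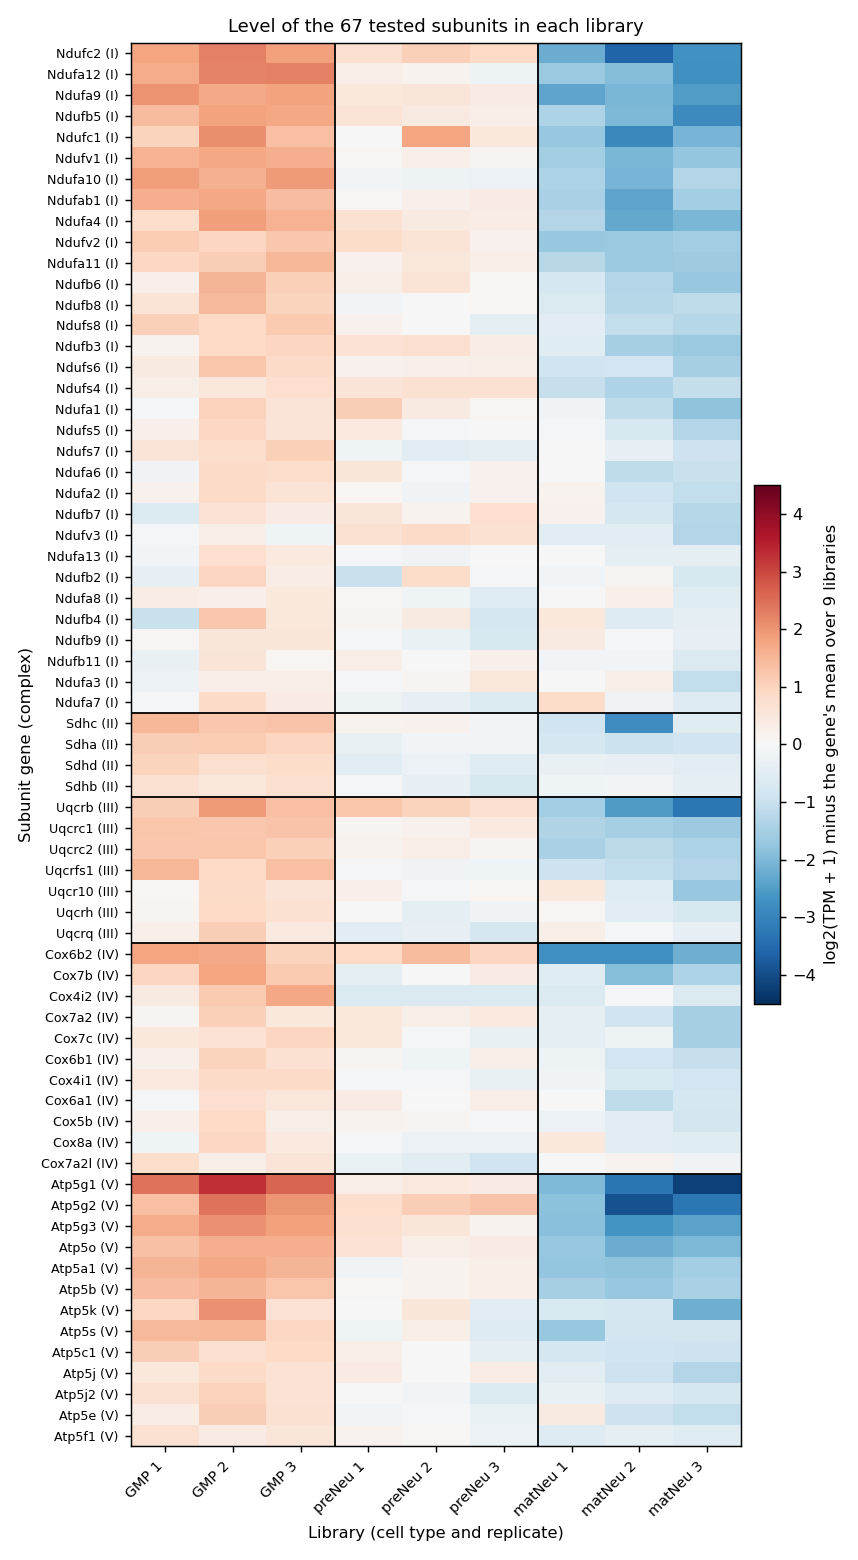
Level of each of the 67 tested members in the 9 libraries, as log2(TPM + 1) minus the mean of the gene over all libraries (red higher, blue lower). Genes are grouped by complex and ordered by their change from GMP to matNeu. The c-subunit genes Atp5g1 and Atp5g2 and complex I genes such as Ndufc2 changed most, and in matNeu replicate 1 many small subunits lay above the other matNeu libraries.

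Complex II oxidises succinate and is at the same time an enzyme of the tricarboxylic acid cycle. All 4 members were lower in preNeu than in GMP, by a median of -1.27, where 44.3% of all tested genes were lower. On the rescaled values, however, Sdhb (-0.49, limma adjusted p = 0.0652) and Sdhc (-0.73, adjusted p = 0.216) lost this call. Sdha, the flavoprotein, measured 567, 589 and 523 TPM in GMP, 207, 243 and 240 TPM in preNeu and 154, 135 and 143 TPM in matNeu, and was lower at each step (-1.28 ± 0.11 and -0.67 ± 0.11, limma adjusted p = 5.37e-06 and 0.000321), although the second step was -0.20 (adjusted p = 0.0824) on the rescaled values. Sdhb, the iron-sulphur subunit, measured 228, 198 and 229 TPM in GMP, 133, 107 and 85.2 TPM in preNeu and 124, 128 and 102 TPM in matNeu. Sdhd, a membrane anchor, measured 546, 443 and 481 TPM, then 191, 223 and 182 TPM, then 212, 208 and 187 TPM. For both genes preNeu and matNeu overlapped (0.14 ± 0.17, adjusted p = 0.491, and 0.03 ± 0.12, adjusted p = 0.847). On values rescaled by median of ratios, Sdhb and Sdhd were higher in matNeu than in preNeu, by 0.61 and 0.50 (limma adjusted p = 0.0225 and 0.00742). Sdhc, the other anchor, spread widely in matNeu, at 23.0, 5.49 and 30.1 TPM. Its fall from GMP to preNeu (-1.26 ± 0.46, adjusted p = 0.0355) lost its call without any of the GMP or preNeu libraries (adjusted p = 0.0648 to 0.0994).

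Complex III passes electrons from ubiquinol to cytochrome c. On TPM as deposited, all 7 of its members were lower in matNeu than in GMP, where 54.1% of all tested genes were. Its core proteins changed in parallel. Uqcrc1 measured 1007, 960.02 and 1013 TPM in GMP, 452, 483 and 568 TPM in preNeu and 163, 148 and 132 TPM in matNeu, and Uqcrc2 measured 337, 341 and 301 TPM, 160.01, 176 and 158 TPM, and 51.3, 60.7 and 53.7 TPM. Their changes from GMP to matNeu were -2.74 ± 0.12 and -2.54 ± 0.12 (limma adjusted p = 5.93e-09 and 8.46e-09). Uqcrfs1, the Rieske iron-sulphur protein, fell 5.27-fold from GMP to matNeu.

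Uqcrb, a small subunit close to a ubiquinone site, fell late. It was at 62.1, 111 and 74.1 TPM in GMP and 69.3, 58.5 and 47.6 TPM in preNeu, which overlapped, and at 8.87, 4.09 and 2.14 TPM in matNeu (-3.44 ± 0.37 from preNeu, limma adjusted p = 1.32e-05). The other small subunits changed less. Uqcrq, Uqcrh and Uqcr10 had changes of -0.66, -0.95 and -1.10 from GMP to matNeu, and none of these 3 passed the test between preNeu and matNeu. These values are on TPM as deposited, and changes as small as these depend on its scaling.

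Complex IV, cytochrome c oxidase, is the complex in which tissues exchange subunit isoforms. Its catalytic core comes from mitochondrial DNA, and the members here are the nuclear subunits around it. Among the common isoforms, Cox4i1, which had the highest mean level in complex IV, measured 316, 423 and 426 TPM in GMP, 228, 223 and 184 TPM in preNeu and 211, 146 and 130 TPM in matNeu, a change of -1.27 ± 0.19 over the whole course (limma adjusted p = 0.000103). Cox5b, Cox6a1, Cox6b1 and Cox7a2 changed by -0.98, -1.04, -1.35 and -1.50 over the same course and Cox7b by -2.59, and each passed the test. Cox8a did not (-0.57 ± 0.30, adjusted p = 0.105), with 85.5, 184 and 131 TPM in GMP and 134, 69.4 and 66.4 TPM in matNeu, and it was lower without GMP replicate 1 (adjusted p = 0.0204) or matNeu replicate 1 (adjusted p = 0.0111). Of these genes, Cox4i1, Cox5b, Cox6a1, Cox6b1 and Cox7a2 lost their call on the rescaled values, where Cox5b stood at 0.02.

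The alternative isoforms stood at low levels. Cox6b2, known as the testis isoform of Cox6b1, measured 22.2, 21.4 and 12.7 TPM in GMP and 11.5, 17.1 and 12.2 TPM in preNeu, and was listed at 0 in 2 matNeu libraries and at 0.487 TPM in the third. Its change from preNeu to matNeu was -3.66 ± 0.30 (limma adjusted p = 1.57e-06), beside -0.78 ± 0.25 for Cox6b1 (adjusted p = 0.0175), a call that was lost without preNeu replicate 1 or 3 or matNeu replicate 2 or 3 (adjusted p = 0.051 to 0.0659). Cox4i2, known as a lung isoform that responds to oxygen, measured 1.06, 2.55 and 4.18 TPM in GMP and was listed at 0 in all preNeu libraries (limma adjusted p = 0.00135).

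Cox7a2l, a relative of Cox7a2, was the only member higher in matNeu than in preNeu. It measured 368, 256 and 315 TPM in GMP, 171, 151 and 113 TPM in preNeu and 212, 238 and 187 TPM in matNeu. The preNeu libraries lay below all others. The rise was 0.56 ± 0.18 (limma adjusted p = 0.0191), and it lost its call without preNeu replicate 3 (adjusted p = 0.0753), without matNeu replicate 2 (adjusted p = 0.0692) and when the most abundant genes were left out (adjusted p = 0.203). From GMP to matNeu Cox7a2l was lower (-0.55 ± 0.18, adjusted p = 0.0168), a call lost without GMP replicate 1 (adjusted p = 0.0695) or matNeu replicate 3 (adjusted p = 0.0593), and turned to 0.45 on the rescaled values (adjusted p = 0.0777). Cox7a2 itself changed by -1.33 from preNeu to matNeu.

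Ndufa4 is grouped with complex I by its symbol and was later assigned to complex IV. It measured 124, 269 and 212 TPM in GMP, 116, 95.4 and 90.4 TPM in preNeu and 27.8, 13.7 and 16.6 TPM in matNeu. The later step (-2.37 ± 0.30, limma adjusted p = 4.39e-05) was larger in size than that of every complex IV member named here except Cox6b2, a difference that was not tested. Cox5a, a complex IV gene of another transcript type, also fell mostly at the later step (-0.62, then -1.95 ± 0.24).

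Complex V had the deepest fall in summed level. On TPM as deposited, all 13 members were lower in matNeu than in GMP, where 54.1% of all tested genes were. All 13 also lay below the median change of all genes. Atp5b, the catalytic beta subunit, measured 2724, 2997 and 2475 TPM in GMP, 1079, 1159.9 and 1249 TPM in preNeu and 368, 321 and 373 TPM in matNeu, the highest mean level of any member. Atp5a1, the alpha subunit, measured 1089, 1275 and 1106 TPM in GMP, 343, 423 and 458 TPM in preNeu and 112, 108 and 133 TPM in matNeu. The groups did not overlap, and the changes from GMP to matNeu were -2.94 ± 0.11 and -3.29 ± 0.14 (limma adjusted p = 2.15e-09 and 4.21e-09), or 7.72-fold and 9.83-fold in mean TPM. Atp5c1, the central shaft, fell less, 3.48-fold (-1.79 ± 0.17).

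The c subunit forms the ring that turns in the membrane as protons pass. Its mature protein is encoded by 3 genes, Atp5g1, Atp5g2 and Atp5g3, which differ in their targeting peptides, and these showed the 3 largest falls in complex V. Atp5g1 measured 128, 230 and 146 TPM in GMP, 28.2, 31.1 and 29.6 TPM in preNeu and 4.97, 1.40 and 0.295 TPM in matNeu. Atp5g2 measured 37.1, 80.7 and 58.4 TPM, then 24.6, 31.4 and 35.8 TPM, then 3.20, 0 and 0.580 TPM. Atp5g3 measured 82.6, 109 and 94.8 TPM, then 43.1, 37.4 and 28.9 TPM, then 6.15, 3.09 and 4.003 TPM. In no case did the cell types overlap.

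The changes of Atp5g1, Atp5g2 and Atp5g3 from GMP to matNeu were -5.95 ± 0.45, -4.92 ± 0.47 and -4.19 ± 0.24 (limma adjusted p = 4.19e-07, 2.64e-06 and 4.3e-08). The first step of Atp5g2 alone did not pass the test (-0.87 ± 0.47, adjusted p = 0.138). Summed over the 3 genes, c-subunit transcripts stood at 322 ± 88.3 TPM in GMP, 96.7 ± 2.91 TPM in preNeu and 7.90 ± 5.57 TPM in matNeu (SD, n = 3), a 40.8-fold fall, beside 8.24-fold for the sum of Atp5a1 and Atp5b. The fall of the c-subunit genes was mostly late, 3.33-fold from GMP to preNeu and 12.2-fold from preNeu to matNeu. These summed folds are on TPM as deposited and depend on its scaling. The c-subunit genes have processed pseudogenes, and how reads shared with such copies were assigned is not given in the sources used here.

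**Figure D4:**
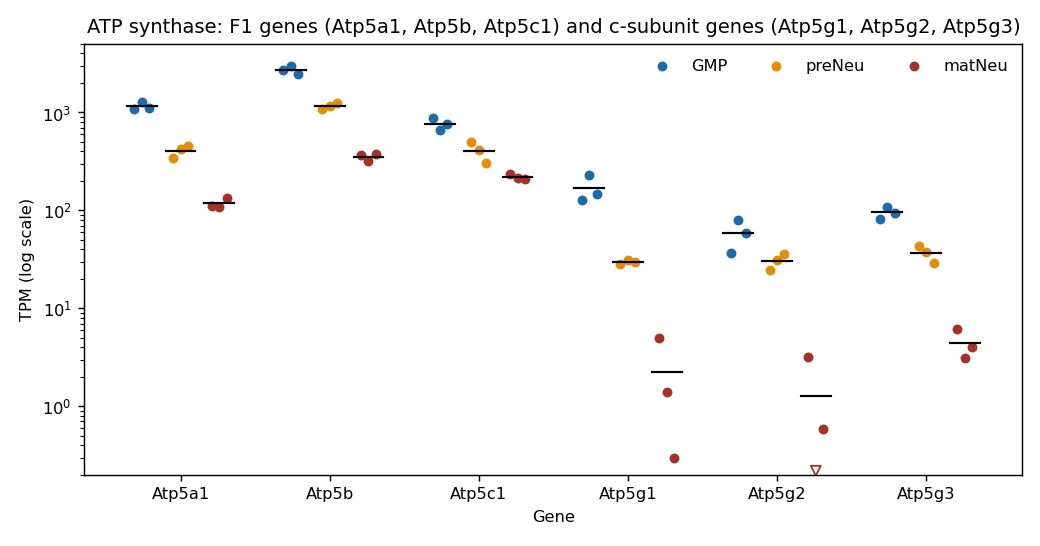
TPM (log scale) of the alpha, beta and gamma subunit genes and of the 3 c-subunit genes of ATP synthase in each library. Points are libraries, black lines are means of 3, and an open triangle at the lower edge marks a library listed at 0 (Atp5g2 in matNeu replicate 2). The c-subunit genes reached 0 to 6.15 TPM in matNeu, and Atp5a1, Atp5b and Atp5c1 stayed between 108 and 373 TPM.

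The outer stalk holds the enzyme together, and its genes differed widely. Atp5o, which joins the outer stalk to the catalytic head, fell 11.9-fold from 179, 219 and 222 TPM in GMP to 20.95, 14.4 and 16.7 TPM in matNeu. Atp5f1, the long arm of the same stalk, fell 2.099-fold, the smallest fall in complex V (-1.06 ± 0.13, limma adjusted p = 2.29e-05). Both were picked out here after their values were seen. Both folds are on TPM as deposited. The median-of-ratios size factors were 1.45 to 1.49 in GMP and 0.696 to 0.763 in matNeu. A fall as small as that of Atp5f1 depends on this scaling.

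The subunits encoded by mitochondrial DNA, which were not members, fell further than the nuclear ones. Their 13 genes summed to 36705 to 45493 TPM in GMP, 15781 to 18008 TPM in preNeu and 1810 to 2040 TPM in matNeu, a 21.7-fold fall in the mean that was mostly late (2.48-fold, then 8.73-fold). On values rescaled by median of ratios this sum fell 10.83-fold (1.707-fold, then 6.343-fold). All 13 were lower in matNeu than in GMP (median -4.82), beside 54.1% of all tested genes. In preNeu 11 of 13 were lower than in GMP, beside 44.3% of all tested genes. mt-Co1, the catalytic subunit of complex IV, was at 593, 670.4 and 729 TPM in matNeu. The ratio of summed member TPM to summed mitochondrially encoded TPM rose from 0.296 to 0.405 in GMP through 0.392 to 0.437 in preNeu to 1.50 to 2.25 in matNeu. Single genes scattered, with mt-Co2 at 86.4, 0.0216 and 0.534 TPM in matNeu. How reads of these genes that match other places in the genome were assigned is not given in the sources used here. mt-Atp6, the proton channel beside the c ring, was at 322, 332 and 304 TPM in matNeu, where the c-subunit genes summed to 14.3, 4.495 and 4.88 TPM.

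The 12 subunit genes with another transcript type were mostly lower as well. Of the 11 tested, 10 were lower in matNeu than in GMP, with a median change of -2.21, beside 54.1% and -0.92 for all tested genes. Only Atp5l did not pass the test. Ndufa5, an accessory subunit, was listed at 0 in all matNeu libraries and at 25.2, 45.3 and 34.8 TPM in GMP. Ndufa4l2, an isoform of Ndufa4, was listed at 0 in all 9 libraries.

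Genes that work with the complexes fell with them. Over all tested genes 54.1% were lower in matNeu than in GMP, with a median change of -0.92. All 13 genes of the tricarboxylic acid cycle were lower (median -2.56), and so were 36 of 44 assembly factors (median -2.26). The lists in this paragraph were counted on TPM as deposited only. Of 20 genes for electron carriers and ubiquinone synthesis, 15 were lower (median -3.08), among them Cycs and Cyc1, cytochrome c and cytochrome c1, with changes of -3.12 and -3.48. The exceptions were few. Cox17, a copper chaperone of complex IV, rose from 20.6, 30.2 and 20.2 TPM in GMP to 47.6, 31.4 and 43.9 TPM in matNeu (0.77, limma adjusted p = 0.0143). Cox14 (0.71), Coq4 (0.70) and Coq10b (0.85) rose as well.

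Of 16 tested regulators of mitochondrial genes, 11 were lower in matNeu than in GMP and 1 was higher, where 54.1% and 22.8% of all genes were, and 9 of 16 lay below the median change of all genes. This list too was counted on TPM as deposited only. Tfam, which packs and transcribes mitochondrial DNA, fell from 68.9, 104 and 45.1 TPM in GMP through 13.5, 22.3 and 22.7 TPM to 3.10, 1.38 and 1.97 TPM (-4.50, limma adjusted p = 3.64e-07). Pprc1, a coactivator of the PGC-1 family, changed by -5.21, and Myc by -8.37. Nrf1 and Yy1, whose factors bind promoters of many respiratory chain genes, did not pass the test (-0.16 each, adjusted p = 0.455 and 0.57), and Gabpa, an ETS factor, fell by 1.28 on the log2 scale. The changes of Nrf1, Yy1 and Gabpa depend on the scaling of TPM. Hif1a, the oxygen-regulated subunit of HIF-1, rose from 66.1, 67.6 and 59.9 TPM in GMP to 112, 168 and 201 TPM in matNeu (1.26, adjusted p = 0.000168).

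Promoter windows from 250 bases before to 50 bases after the start of each gene, from RefSeq on GRCm38.p6, were read for 61 of the 72 members and searched on both strands for short cores that these factors are known to bind. AAGATGGC, the YY1 core, was in 9 of 61 windows (14.8%), beside 4.94% of the 9480 tested genes with a window and 2.88% of all 27025 windows. GCGCATGC, the NRF1 core, was in 8 of 61 (13.1%), beside 5.57% of tested genes and 2.81% of all. CCGGAAG, the ETS core, was in 11 of 61 (18.03%), close to the 19.2% of tested genes and above the 9.12% of all. Where GC follows the NRF1 core it reads as the core on the other strand too, and such a promoter was counted once. No member window with a YY1 core held another of these cores.

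The YY1 core was in 7 of 30 windows of complex I, 2 of 12 of complex V and in none of the 3, 4 and 12 windows of complexes II, III and IV. In 8 of the 9 windows it lay on the strand of the gene, 22 to 38 bases after the start, and in all 8 the ATG inside it is an annotated start codon in GENCODE M21. The following 30-base stretches show this shared placement, with the YY1 core in capitals.
Ndufa9, chr6:126849097-126849126, minus strand: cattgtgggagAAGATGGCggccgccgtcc
Ndufc1, chr3:51408915-51408944, minus strand: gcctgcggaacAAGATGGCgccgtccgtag
Ndufs4, chr13:114388045-114388074, minus strand: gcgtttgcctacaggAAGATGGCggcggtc
Ndufs6, chr13:73328433-73328462, minus strand: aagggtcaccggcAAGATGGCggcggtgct
Ndufs7, chr10:80249462-80249491, plus strand: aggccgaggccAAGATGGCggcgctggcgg
Atp5j2, chr5:145191500-145191529, minus strand: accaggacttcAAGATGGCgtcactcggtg
These genes had log2 changes from GMP to matNeu of -4.15 for Ndufa9, -3.71 for Ndufc1, -1.92 for Ndufs6, -1.67 for Ndufs4, -1.35 for Atp5j2 and -1.27 for Ndufs7. Ndufa3 and Ndufb8 hold the core with the same placement but are not printed, and Atp5f1 holds it on the other strand. They changed by -0.39, -2.05 and -1.06, and the change of Ndufa3 did not pass the test (limma adjusted p = 0.295).

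The NRF1 core lay before the start in every member window that held it except that of Uqcrc1, and 3 of the named genes are shown, with the core in capitals.
Atp5g2, chr15:102671071-102671100, minus strand: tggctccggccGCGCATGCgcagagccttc
Cox6a1, chr5:115349102-115349131, minus strand: acaggaacgggGCGCATGCgcgctctcgct
Uqcrc1, chr9:108936667-108936696, plus strand: gactccgctctGCGCATGCgcagcgcggct
Atp5g2 changed by -4.92 from GMP to matNeu, Uqcrc1 by -2.74 and Cox6a1 by -1.04, and the other 5 genes with the core, Atp5k, Ndufa11, Ndufa6, Sdhb and Ndufa8, by -2.43, -2.68, -1.22, -0.88 and -0.46, of which the change of Ndufa8 did not pass the test. A match is a description of the letters and not of binding.

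H3K4me2 marks promoters and enhancers that are active or open. Peaks were compared with promoters from 2 kb upstream to 500 bp downstream of each gene start. The mark was at 64 of the 72 member promoters in GMP (88.9%), 67 in preNeu (93.1%) and 67 in matNeu, beside 59.4%, 59.3% and 56.9% of all protein-coding promoters. Among genes with a mean of at least 1 TPM, 62, 65 and 65 of 66 members had a peak (93.9%, 95% Wilson interval 85.4 to 97.6%, and 98.5%, 91.9 to 99.7%), beside 87.8%, 90.6% and 89.5% of all such genes. Intervals cover counting error only, and with 1 library per cell type there is no replicate check.

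The promoters of 64 members carried the mark in all 3 cell types, and no member had a peak in GMP that was missing in matNeu. With a mean of at least 1 TPM, 93.9% of members and 86.1% of all genes had all 3 peaks, and of all genes 0.841% had the peak in GMP alone and 0.788% in GMP and preNeu alone. Cox7b, Cox7c and Ndufb7 had peaks in preNeu and matNeu but not in GMP. Cox6a2, Cox7b2, Cox8b and Cox8c, which were at or near 0 TPM, had no peak in any list. Cox7a2l had none at its annotated gene start, which belongs to a non-coding transcript, whereas its protein-coding start, 3000 bases downstream, lay in a peak in all 3 cell types (chr17:83512400-83515222 in GMP). At members with a peak the highest fold enrichment per promoter had a median of 3.44 in GMP, 10.2 in preNeu and 8.19 in matNeu. These are not comparable between lists, since the median over all peaks was also lowest in GMP (2.89, 4.55 and 3.78). The GMP count was sensitive to the peak threshold, and 18 of 72 members kept a peak when its −log10 q-value had to reach 5, where 25.5% of all promoters did. Among genes with a mean of at least 1 TPM the shares were then 27.3% of members and 36.7% of all, so that the members were no longer marked more often in GMP.

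CHD4 peaks were rare at the member promoters. In wild type GMPs 1 of 72 had a CHD4 peak (1.39%, 95% Wilson interval 0.246 to 7.46%), beside 8.58% of all protein-coding promoters and 13.0% of those with a mean of at least 1 TPM. The peak belonged to Atp5o and lay at chr16:91933294-91933507 with its midpoint 1713 bases upstream of the gene start and a fold enrichment of 5.69, and no member had a peak within 1 kb of its gene start. In Gfi1-/- GMPs 0 of 72 members had a CHD4 peak (Wilson upper limit 5.07%), beside 1.65% of all protein-coding promoters.

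**Figure D5:**
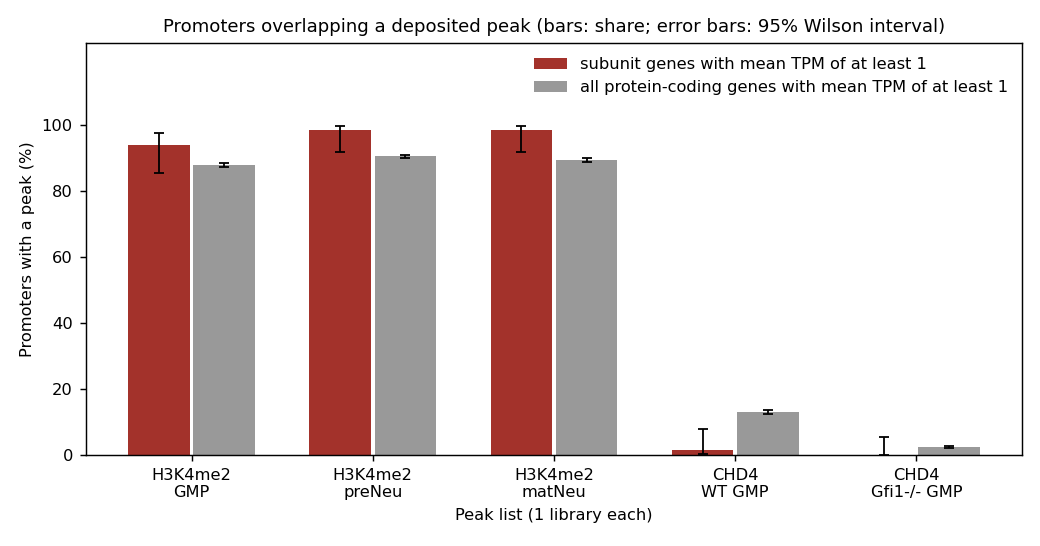
Share of promoters (%) overlapping a deposited peak, for the 66 members and all 11417 protein-coding genes with a mean of at least 1 TPM. Each list is 1 library, and error bars are 95% Wilson intervals, which cover counting error only. H3K4me2 was at 93.9% to 98.5% of the member promoters, and CHD4 at 1 of them in wild type GMPs and at 0 in Gfi1-/- GMPs.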

How the data were processed

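Expression was deposited by the authors as TPM per gene for 9 RNA-seq libraries, 3 per cell type. Peak lists were deposited with fold enrichment ratios and −log10 q-values that the authors' peak caller gave for each peak, 1 list per group. The submitters' processing notes name Trimmomatic 0.36, FastQC 0.11.5, BWA 0.7.17, kallisto 0.44.0, MACS2 2.1.0 and MultiQC 1.6 without their roles. The paper names Tophat and HTSeq for its RNA-seq reads, so which tools gave the TPM is not clear. TPM keeps no depth. No count table was used, and 0 sample columns were left unused. The deposited GFI1, H3K4me3 and ATAC-seq lists were not used here.

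Genes that reached 1 TPM in 3 or more libraries were fitted by cell type on log2(TPM + 1) with limma 3.58.1 in R 4.3.3, with a variance trend, and p-values were adjusted by Benjamini-Hochberg over all 13061 genes at 0.05. All cell types shared the estimate of spread. Fold changes on this scale understate those of low genes. An exact permutation test of 3 against 3 libraries cannot go below 0.1 and was not used. Shares of promoters (GENCODE M21, GRCm38) with at least 1 base of overlap have 95% Wilson intervals. Tables were handled in Python 3.11.15 with pandas 2.3.3, scipy 1.17.1 and numpy 2.4.6, and matplotlib 3.10.9 drew the plots. The fit was tested on simulated data.

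Genes were named when they were core electron-transfer or catalytic subunits, belonged to an isoform group, were among the 5 largest rises or falls past the threshold in a comparison, or had the highest mean TPM of their complex. Other genes named complete a count, hold a printed sequence or were picked after their values were seen. The members and lists were chosen with earlier results of these data known. Alternatives were a pseudocount of 0.1, no filter and a filter of 5 TPM, median-of-ratios scaling, leaving out the 10 most abundant genes of each cell type, fits of the compared cell types only, no variance trend, a block on replicate number, leaving out each library, and other peak thresholds, overlaps and promoter windows. Some genes are not reported here.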

Additional observations from a re-analysis of the deposited data

How the results depend on the processing

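Median-of-ratios scaling changed most. From GMP to preNeu it left 19 of 67 members lower, near the 27.6% of all genes lower, and 2 higher, beside 23.49% of all genes (median change -0.34). From preNeu to matNeu 32 were lower and 6 higher, where 32.3% and 31.9% of all genes were (median -0.55). From GMP to matNeu 36 were lower and 0 higher, where 40.3% and 36.05% of all genes were (median -0.79). Under it the changes from GMP to matNeu turned to 0.0181 for Cox5b, 0.45 for Cox7a2l, 0.24 for Ndufv3 and 0.11 for Sdhb. Of 99 results for named genes it kept 71, and 22 lost and 2 gained a call. Without the most abundant genes, 2 members were higher in preNeu than in GMP and 0 in matNeu than in preNeu, beside 20.12% and 19.25% of all genes. The cause was not tested. With promoters of 1 kb, CHD4 peaks of wild type GMPs overlapped 0 members, beside 8.38% of all promoters. At the stricter threshold 18 of 72 members kept an H3K4me2 peak in GMP, beside 25.5% of all promoters. The rescaled sums given in the report were chosen after seeing the data. With starts of protein-coding transcripts, also an alternative chosen after seeing the data, 65, 68 and 68 members had H3K4me2 peaks in GMP, preNeu and matNeu.

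Leaving out 1 library at a time gave 31 to 43, 38 to 48 and 54 to 62 members lower in the 3 comparisons. Of all tested genes 39% to 45.06%, 37% to 39.79% and 52.09% to 54.05% were then lower. From GMP to preNeu 12.99% to 15.01% of all genes were higher, and from preNeu to matNeu 20.27% to 23.01%. The member higher in preNeu than in GMP, and the member higher in matNeu than in preNeu, each varied between 0 and 1. It was 0 without GMP replicate 3 or preNeu replicate 2 in the first case, and without preNeu replicate 3 or matNeu replicate 2 in the second. Same-numbered libraries had correlated deviations of -0.039 to 0.123, so the numbers were not taken to pair them. With a replicate block, 38, 44 and 58 members were lower and 1, 1 and 0 higher, and no named call changed. Of all genes 43.86%, 39.6% and 54.09% were then lower and 14.72%, 22.74% and 22.72% higher. Depth is unknown, so the precision of low TPM values cannot be given.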
